A study of Mus musculus with 12 samples.

Results

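The data describe 6 mouse miRNAs, mmu-miR-375, mmu-miR-7a, mmu-miR-7b, mmu-miR-182, mmu-miR-183 and mmu-miR-96, which were taken by probe name from the 566 mouse miRNA probes of a NanoString panel. The first 3 are known from secretory and endocrine cells, and the other 3 form a genomic cluster best known from sensory epithelia. Their levels were read in 12 libraries from male NOD mice of the NOD/ShiLtJ strain, which is prone to spontaneous autoimmune diabetes, at postnatal day 23. There were 4 libraries from mice given cecal material, called the restoration group in the treatment protocol, 4 from mice labelled 1PAT antibiotics and 4 from mice labelled control. The tissue label is ileum, whereas the design text speaks of epithelial cells of the intestine, and all libraries carry the same batch label. No source used here gives the drug, its dose or the donor of the cecal material. The series title presents the transfer as a rescue after antibiotic exposure, but no label states that the restored mice had received the antibiotic. Dams with their litters were allotted to the groups at random, and no dam is named for a library, so libraries of 1 group may come from littermates and p-values measure only the spread between libraries.

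A miRNA is cut from a hairpin precursor and guides Argonaute proteins to messenger RNAs, chiefly through its seed, bases 2 to 8 from the 5′ end. In mouse, miR-375 is abundant in pancreatic islet cells and is also made in the gut epithelium, in enteroendocrine and other secretory cells among others. miR-7 is enriched in neurons and endocrine cells, and it has several gene copies. miR-183, miR-96 and miR-182 are processed from 1 primary transcript and are needed in the inner ear and retina, with lower expression in other epithelia.

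The mature sequences are shown because shared seeds decide which of these miRNAs can pair with the same messages, and because near-identical sequences bear on what a probe can tell apart. They are RefSeq sequences on GRCm38.p6, written 5′ to 3′ with the seed in capitals. The probe names carry no arm, and the arm shown is the 5p arm, to which these unsuffixed names formerly referred. A sequence was matched for 5 of the 6 miRNAs, miR-375 being named only.
miR-7a: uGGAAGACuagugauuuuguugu
miR-7b: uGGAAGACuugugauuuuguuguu
miR-182: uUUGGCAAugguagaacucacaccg
miR-96: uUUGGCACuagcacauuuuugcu
miR-183: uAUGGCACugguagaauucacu
The miR-7a and miR-7b sequences share their seed and differ by A10U over the first 23 bases, miR-7a being given first and positions counted from the 5′ end, while miR-7b runs 1 base longer. The deposited values do not show how far the 2 probes cross-react, which was not tested. Mature miR-7a lies at chr13:58392841-58392863 on the minus strand in Mir7-1 and at chr7:78888295-78888317 on the plus strand in Mir7-2, so its signal sums 2 genes, and miR-7b lies at chr17:56243017-56243040 on the plus strand in Mir7b.

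The cluster occupies 3820 bases of the minus strand of chromosome 6. Mir183 comes first in the direction of transcription, Mir96 follows after 116 bases, and Mir182 after a further 3453 bases. Mature miR-183 is at chr6:30169711-30169732, miR-96 at chr6:30169506-30169528 and miR-182 at chr6:30165962-30165986. Their seeds are near relatives rather than copies. miR-182 and miR-96 differ in the seed by A8C alone, with miR-182 first, and miR-183 and miR-96 by A2U alone, with miR-183 first. Only miR-1271-5p shares the whole seed of miR-96 among the mouse miRNAs of the RefSeq table, and no other listed miRNA has that of miR-182 or of miR-183.

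Values are normalised signal, the deposited unit, in which 1 count was worth 0.590 to 1.92 units depending on the library. Depth differed by group, with 280114 to 393551 recovered counts per cecal transfer library, 120235 to 148297 per antibiotic library and 169844 to 274302 per control library. Probes for 33 herpesvirus miRNAs served as a measure of background, and their mean signal lay between 9.37 and 12.5 in cecal transfer, 13.8 and 17.5 in antibiotic and 11.8 and 27.5 in control libraries. The highest of these means belonged to control replicate 3. The libraries held miRNAs of non-epithelial cells beside epithelial ones. The summed signal of 7 epithelial miRNAs (miR-200a, miR-200b, miR-200c, miR-141, miR-429, miR-192 and miR-194) ranged from 25196 to 41500 over all libraries. That of the smooth muscle and fibroblast list of 5, of which 4 were tested and miR-145 was the most abundant, ranged from 28183 to 46958. Of the pancreatic acinar list of 3 only miR-216b passed the filter on low values. The signal summed over the list was 73.5 to 99.4 in cecal transfer, 71.5 to 102 in antibiotic and 68.5 to 110 in control libraries. In whole tissue, fewer cells of a type and less of a miRNA per cell cannot be told apart.

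All 6 miRNAs exceeded a signal of 32 in at least 4 libraries, the filter that left 226 mouse probes for testing. miR-375 gave by far the most counts of the 6, between 1473 and 3873 per library, and made up 0.947% to 1.44% of the mouse signal. By signal it ranked between 20 and 27 of the 566 mouse probes. miR-96 ranked between 60 and 70, miR-7a between 78 and 97 and miR-183 between 79 and 101. The weakest were miR-7b, ranked 137 to 182 with 30 to 104 counts, and miR-182, ranked 145 to 204 with 23 to 75 counts. These ranks describe the signal alone, since the yield of tagging and hybridisation differs between miRNAs. miR-375 stood 102-fold to 328-fold above the mean herpesvirus signal, whereas miR-182 stood 1.62-fold to 5.01-fold above it. In control replicate 3, the library with the highest background, 1 herpesvirus probe also exceeded miR-7a and miR-183.

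miR-7a was the one member that differed between groups past the threshold. It was 1.28-fold higher in cecal transfer than in control libraries, and its level in antibiotic libraries lay close to that in cecal transfer libraries. The signal was 212, 219, 257 and 244 in cecal transfer libraries, 256, 190, 240 and 224 in antibiotic libraries, and 188, 173, 179 and 186 in control libraries. Every cecal transfer and every antibiotic library was above every control library, antibiotic replicate 2 by the least. That library (190.0) and control replicate 1 (188.5) lay less than 1 count apart, 1 count being 1.62 units in antibiotic replicate 2. The means were 233 ± 21.0 in cecal transfer, 227 ± 28.2 in antibiotic and 182 ± 6.85 in control libraries (SD, n = 4 each). Counting error alone gives a coefficient of variation of 5.58%, 8.72% and 7.84% in cecal transfer, antibiotic and control libraries. The observed values were 9.02%, 12.4% and 3.78%, so the control libraries lay closer together than counting error alone would give. Cecal transfer exceeded control by 0.36 on the log2(signal + 1) scale (SE 0.10, 95% interval 0.14 to 0.57, limma adjusted p = 0.0186 over 226 probes).

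The antibiotic libraries exceeded the control libraries in miR-7a by a log2 difference of 0.32 (95% interval 0.10 to 0.53), which did not pass (limma adjusted p = 0.129). Between cecal transfer and antibiotic libraries the difference was 0.04 (95% interval −0.18 to 0.26, adjusted p = 0.798). In the order of levels, cecal transfer and antibiotic were thus neighbours that did not differ beyond their spread. The call for cecal transfer against control depended on the processing and on single libraries. It was lost with median centring (log2 difference 0.29, adjusted p = 0.1035) and with quantile normalisation (0.25, adjusted p = 0.1317). It was also lost with DESeq2 on the recovered counts (0.31, adjusted p = 0.0994) and with log2 depth in the model (0.38, adjusted p = 0.192), while edgeR on the recovered counts kept it (0.31, adjusted p = 0.0304). Without control replicate 2, cecal transfer replicate 3 or cecal transfer replicate 4 the adjusted p was 0.0509, 0.0642 and 0.0573. Depth also differed between these groups. With all libraries thinned to the shallowest one, the planned single draw gave a log2 difference of 0.13 (adjusted p = 0.4455), and 20 later draws gave a median log2 difference of 0.35 and passed in 11 of 20.

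**Figure D1:**
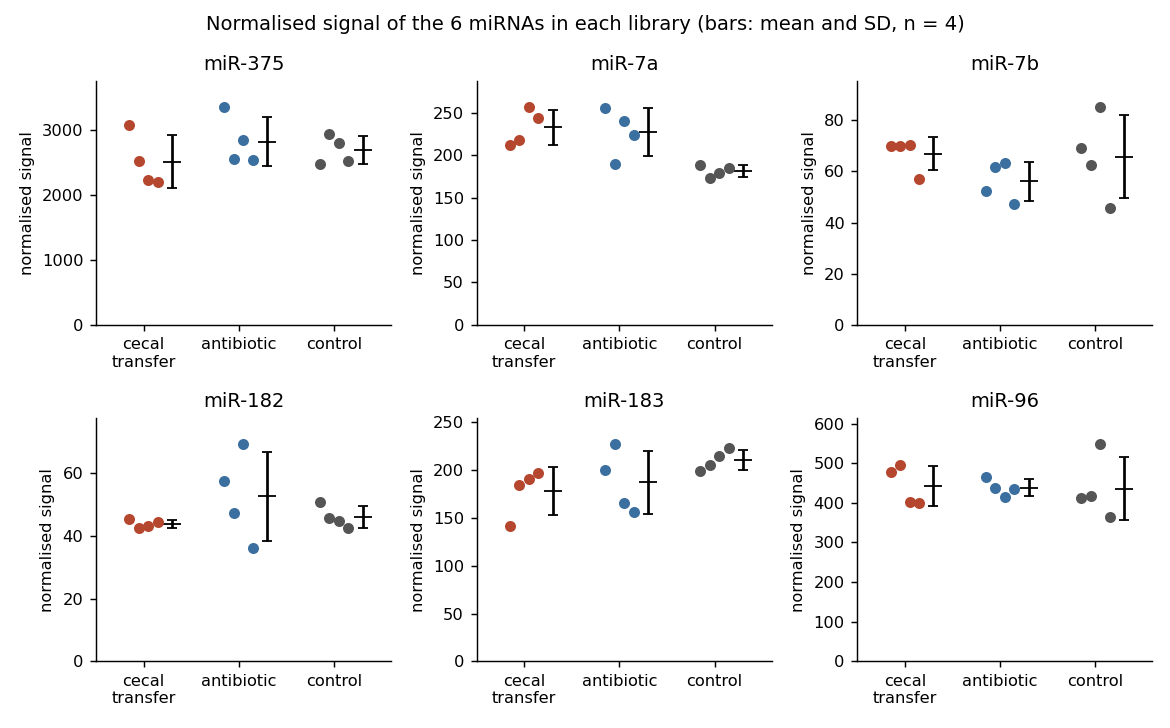
Normalised signal of each of the 6 miRNAs (vertical axis, starting at 0) in the 4 libraries of the cecal transfer, antibiotic and control groups; points are libraries, bars the mean and SD. miR-7a is the panel in which cecal transfer (212 to 257) and antibiotic (190 to 256) libraries all lie above the control libraries (173 to 188).

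miR-7b, whose seed is that of miR-7a, did not differ past the threshold in any comparison. Its signal was 69.8, 70.2, 70.4 and 57.2 in cecal transfer libraries, 52.2, 61.7, 63.5 and 47.2 in antibiotic libraries, and 69.3, 62.7, 85.2 and 45.8 in control libraries. The control libraries spanned the whole range of the others. Cecal transfer replicate 4 was the lowest of its group, with the other libraries of the group within 1 unit of each other. The log2 differences were 0.05 for cecal transfer against control, −0.20 for antibiotic against control and 0.25 for cecal transfer against antibiotic. The 95% interval of the last ran from −0.12 to 0.63, which reaches a fold of 1.55 (limma adjusted p = 0.304).

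The ratio of the miR-7a signal to the miR-7b signal was 3.05 to 4.27 in cecal transfer, 3.08 to 4.90 in antibiotic and 2.10 to 4.05 in control libraries. For the tests, 1 was added to each signal before the log2 ratio was taken, here and for the cluster. That log2 ratio was 1.79 ± 0.22 in cecal transfer, 2.0 ± 0.31 in antibiotic and 1.48 ± 0.38 in control libraries (SD, n = 4 each). Antibiotic exceeded control by 0.52 (exact two-sided permutation p = 0.0857, and 0.539 after Benjamini-Hochberg adjustment over 12 ratio tests). Cecal transfer exceeded control by 0.30 (exact p = 0.200, adjusted 0.539). With 4 libraries against 4, the smallest p such a test can give is 0.0286. A single ratio, however well separated, could therefore not pass on its own after adjustment over 12 tests. The groups overlapped in both comparisons, control replicate 4 having a signal ratio of 4.05.

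miR-375, the most abundant of the 6, did not differ past the threshold in any comparison. Its signal was 3071, 2523, 2227 and 2195 in cecal transfer libraries, 3345, 2550, 2833 and 2537 in antibiotic libraries, and 2476, 2925, 2800 and 2521 in control libraries. The 3 groups overlapped throughout, with 1 high library in the cecal transfer group and 1 in the antibiotic group. The means were 2504 ± 406, 2816 ± 378 and 2680 ± 217 in cecal transfer, antibiotic and control libraries (SD, n = 4 each). The log2 difference was −0.11 for cecal transfer against control (95% interval −0.35 to 0.14, limma adjusted p = 0.550), 0.07 for antibiotic against control (−0.18 to 0.31, adjusted p = 0.831) and −0.17 for cecal transfer against antibiotic (−0.42 to 0.07, adjusted p = 0.284). Expressed as folds, the intervals left room for a level between 0.783 and 1.10 times control in cecal transfer and between 0.883 and 1.24 times control in antibiotic libraries.

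Of the sensory cluster, no miRNA differed past the threshold between any 2 groups. miR-183 was the member of the cluster with the largest difference. Its signal was 141, 185, 191 and 196 in cecal transfer libraries, 200, 227, 165 and 156 in antibiotic libraries, and 199, 205, 215 and 223 in control libraries. Every cecal transfer library was below every control library, though cecal transfer replicate 4 and control replicate 1 were only 3 units apart. The log2 difference of cecal transfer from control was −0.25 (95% interval −0.53 to 0.03, limma adjusted p = 0.180). Without cecal transfer replicate 1, the lowest library, it was −0.14 (adjusted p = 0.459), and with quantile normalisation it was −0.37 and passed (adjusted p = 0.0463). The antibiotic libraries overlapped both other groups, with log2 differences of −0.19 from control (adjusted p = 0.497) and, for cecal transfer against antibiotic, −0.07 (adjusted p = 0.752).

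miR-96, whose precursor lies next to that of miR-183, had nearly equal means in the 3 groups. The signal was 477, 495, 401 and 399 in cecal transfer libraries, 466, 437, 415 and 435 in antibiotic libraries, and 412, 417, 549 and 364 in control libraries. Control replicate 3 had the highest value of all 12 and control replicate 4 the lowest. Group means were 443 ± 50.2 in cecal transfer, 438 ± 20.9 in antibiotic and 436 ± 79.2 in control libraries (SD, n = 4 each). The log2 difference from control was 0.03 in cecal transfer (95% interval −0.22 to 0.29) and 0.02 in antibiotic libraries (−0.23 to 0.28), and the intervals reached folds of 1.22 and 1.21 at most.

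miR-182 was the weakest member of the cluster and the least well measured. Its signal was 45.2, 42.5, 43.1 and 44.2 in cecal transfer libraries, 57.4, 47.1, 69.2 and 36.2 in antibiotic libraries, and 50.7, 45.7, 44.7 and 42.4 in control libraries. The antibiotic libraries held both the highest and the lowest value of the 12. These rested on 52 to 75 counts in cecal transfer, 23 to 36 in antibiotic and 32 to 60 in control libraries. Counting error alone gives a coefficient of variation of 12.8%, 18.4% and 15.7% at such counts in the 3 groups, against 2.75%, 26.9% and 7.67% observed in cecal transfer, antibiotic and control libraries. In each library at least 1 herpesvirus probe had a signal as high as that of miR-182. The 95% interval for cecal transfer against control ran from a log2 difference of −0.44 to 0.31, so levels between 0.737 and 1.24 times control were within it. For antibiotic against control the 95% interval ran from 0.858 to 1.44 times control.

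Within the cluster, no ratio between its members passed the test in any comparison. Since a single ratio could not pass on its own after adjustment over 12 tests, this does not show that the ratios were unchanged. The log2 ratio of miR-183 to miR-96 was −1.31 ± 0.34 in cecal transfer, −1.24 ± 0.23 in antibiotic and −1.03 ± 0.26 in control libraries (SD, n = 4 each). Cecal transfer was lower than control by a log2 difference of −0.28 (exact permutation p = 0.200) and antibiotic by −0.21 (exact p = 0.286), with 0.539 after adjustment over 12 tests for both. The log2 ratio of miR-182 to miR-183 was −1.99 ± 0.25 in cecal transfer, −1.84 ± 0.44 in antibiotic and −2.18 ± 0.18 in control libraries, with no exact p under 0.200. For miR-182 to miR-96 the lowest exact p was 0.400. The plot of ratios shows that the libraries of a group differ by more than the group means do for these 3 pairs.

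**Figure D2:**
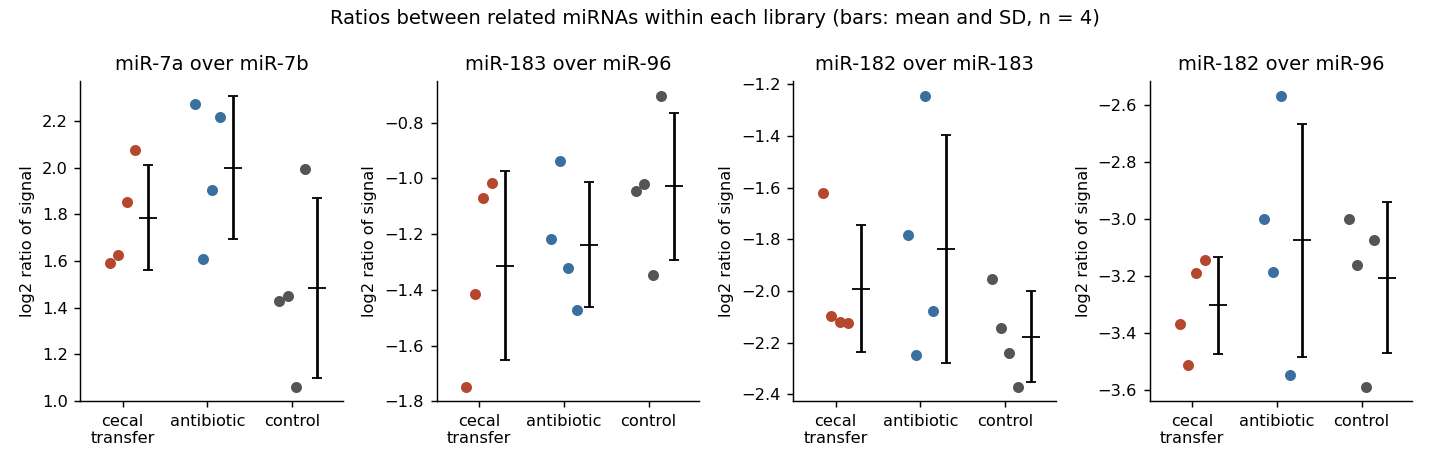
Log2 ratio of signal between related miRNAs (vertical axes, not starting at 0) in the 4 libraries of each group; points are libraries, bars the mean and SD. The ratio of miR-7a to miR-7b averages 1.79 in cecal transfer, 2.0 in antibiotic and 1.48 in control libraries, and the groups overlap in all 4 panels.

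Over the 6 miRNAs, 1 rose and 0 fell in cecal transfer against control, where 30.1% of the 226 tested probes were called in either direction. None of the 6 was called for antibiotic against control (called among all probes: 0%) or for cecal transfer against antibiotic (32.7%). At an unadjusted p under 0.05, limma gave 1 of 6, 1 of 6 and 0 of 6 in cecal transfer against control, antibiotic against control and cecal transfer against antibiotic. Over all 226 probes the same counts were 84, 34 and 90. For antibiotic against control over all probes, edgeR called 0 and DESeq2 called 3. edgeR and DESeq2 on the recovered counts called 0 of 6 in the comparison of antibiotic with control and in that of cecal transfer with antibiotic. The ranges of the 4 libraries did not overlap for 2 of 6 (miR-7a and miR-183) in cecal transfer against control, against 29.6% of all tested probes. They did not overlap for 1 of 6 (miR-7a) in antibiotic against control, against 8.41%, and for 0 of 6 in cecal transfer against antibiotic, against 33.6%. The median absolute log2 difference of the 6 was 0.09, 0.17 and 0.12 in these comparisons, beside 0.20, 0.12 and 0.23 over all tested probes.

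**Figure D3:**
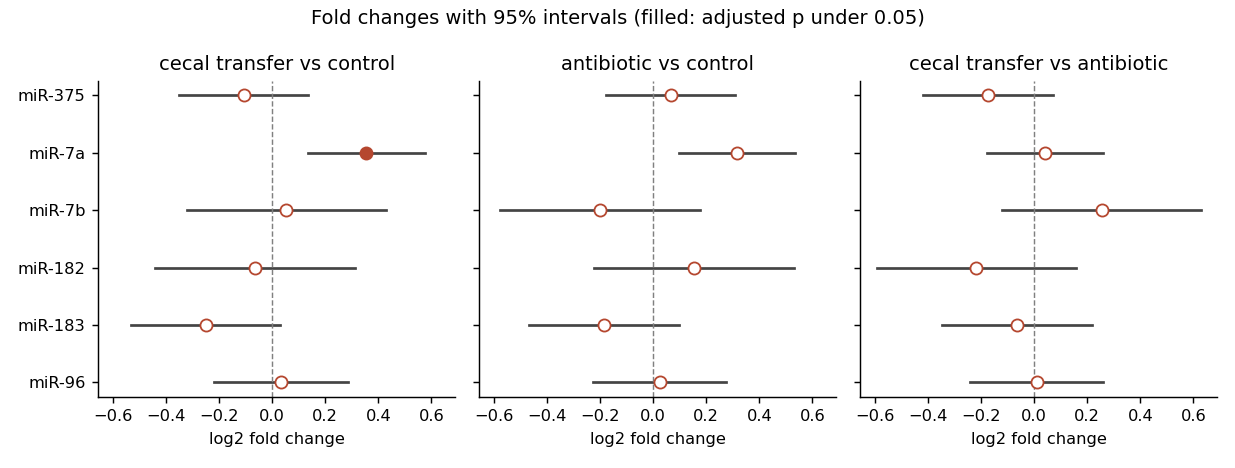
Log2 fold changes of the 6 miRNAs with 95% intervals from limma (horizontal axis) in cecal transfer against control, antibiotic against control and cecal transfer against antibiotic; filled points have an adjusted p under 0.05. The filled point is miR-7a in cecal transfer against control, at 0.36.

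The 7 epithelial miRNAs gave the setting for these values. In cecal transfer against control, 5 of 7 fell and 2 did not pass, where 27 of all 226 probes fell and 41 rose. The list had a median log2 difference of −0.29 beside −0.02 for the 6 and 0.05 for all tested probes. The largest fall was that of miR-194, abundant in intestinal epithelium, with 6478 ± 963 in cecal transfer and 12337 ± 3666 in control libraries (SD, n = 4 each). In cecal transfer against antibiotic, 4 of 7 fell, where 29 of all 226 probes fell and 45 rose, and the list had a median of −0.28 beside −0.03 for the 6. With log2 depth in the model, 2 of 7 fell against control and 0 of 7 against antibiotic, and with quantile normalisation 2 of 7 and 4 of 7. In antibiotic against control 0 of 7 passed by limma, with 1 at an unadjusted p under 0.05. The smooth muscle and fibroblast list went the other way and was higher in cecal transfer libraries. It summed to 38997 to 46958 in cecal transfer, 31969 to 34402 in antibiotic and 28183 to 35486 in control libraries. The 100 strongest probes summed to between 220014 and 222565 in every library, so levels of abundant probes are not independent of each other in this unit. How far this joins the epithelial list to the smooth muscle and fibroblast list was not tested. The part of the latter list in the values of the 6 miRNAs was not tested either.

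Each of the 6 was also read against the mean log2 signal of the epithelial miRNAs in the same library. Relative to that mean, all 6 were higher in cecal transfer than in control libraries, by 0.08 (miR-183) to 0.69 (miR-7a). For miR-7a every cecal transfer library was above every control library (exact two-sided permutation p = 0.0286, the smallest possible, and 0.147 after adjustment over 18 tests). Relative miR-7b (0.38), miR-96 (0.36) and miR-182 (0.27) had an exact p of 0.0571, also 0.147 after adjustment. Against antibiotic libraries, the cecal transfer libraries exceeded them by 0.55 in relative miR-7b and by 0.31 in relative miR-96, both with exact p = 0.0286 and adjusted p = 0.147. A relative level also rises when the epithelial mean falls. The epithelial list had a median log2 difference of −0.29 in cecal transfer against control and −0.28 against antibiotic. Not set against that mean, miR-7a exceeded control by 0.36 in cecal transfer libraries. Against antibiotic libraries, miR-7b then differed by 0.25 and miR-96 by 0.01 (limma adjusted p = 0.304 and 0.954). Relative miR-375 had differences of 0.22 for cecal transfer against control and 0.13 for cecal transfer against antibiotic, with exact p of 0.286 and 0.457. No relative level passed after adjustment, and over 18 tests a single fully separated one could not have passed on its own.

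**Figure D4:**
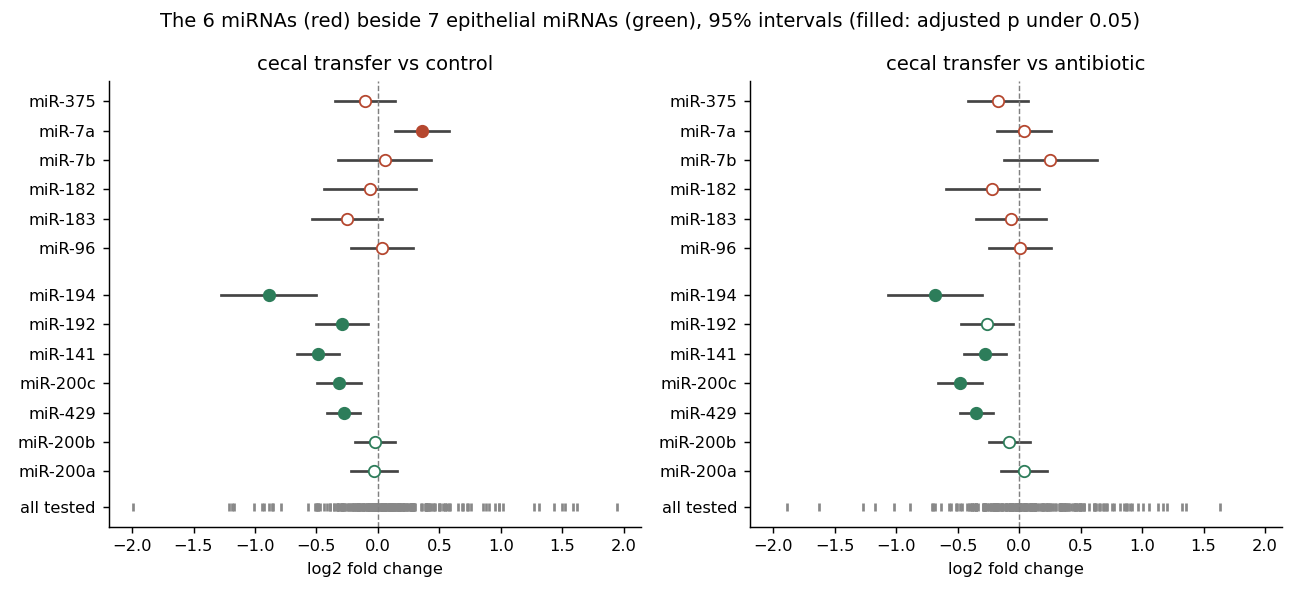
Log2 fold changes with 95% intervals (horizontal axis) of the 6 miRNAs (red) and of 7 epithelial miRNAs (green) in cecal transfer against control and against antibiotic, with all 226 tested probes as grey ticks; filled points have an adjusted p under 0.05. The 5 filled epithelial miRNAs against control lie below 0, with miR-194 at −0.89, and the 6 miRNAs lie between −0.25 and 0.36.

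How the 6 varied from library to library was examined after removing group means, over 12 libraries and 15 pairs, with libraries exchanged within groups in all 13824 orders. No pair passed after adjustment. The cluster miRNAs showed little shared variation, with r = −0.13 for miR-183 and miR-96 (rho −0.20, exact permutation p = 0.665 and 0.556), r = −0.01 for miR-182 and miR-183 (rho −0.19, exact p = 0.990 and 0.509) and r = −0.02 for miR-182 and miR-96 (rho −0.10, exact p = 0.909 and 0.726), all at an adjusted p of 0.778 or more. The r was also taken without the 2 libraries farthest from the median in the first-named miRNA of a pair. The libraries left out can therefore differ between pairs. For these pairs that r was −0.01, −0.41 and 0.13. miR-7a and miR-7b had r = −0.22 (rho −0.14, exact p = 0.434 and 0.685, both adjusted p at 0.778 or more), and −0.08 without the 2 farthest libraries.

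The pair with the lowest exact p was miR-375 and miR-96, with r = 0.53 and rho 0.62 (exact permutation p = 0.0619 and 0.0748, adjusted 0.643 and 0.733). It kept r = 0.52 without the 2 libraries farthest in miR-375. The highest r was 0.67 for miR-7b and miR-96 (rho 0.38, exact permutation p = 0.0857 and 0.261, adjusted 0.643 and 0.778). It was 0.11 without the 2 libraries farthest in miR-7b. Neither check left out a library for being extreme in miR-96. For the weak miR-182 and miR-7b the counting error limits any such relation. In control libraries the observed coefficient of variation was 5.02% for miR-183 and 3.78% for miR-7a, below the 7.25% and 7.84% of counting error. For miR-96 in antibiotic libraries it was 4.78%, below 6.27%. In these groups the observed spread was thus not above counting error for the miRNA concerned. With n = 4 this does not show that further variation was absent, which was not tested. In the remaining groups of these miRNAs the observed value was the higher.

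**Figure D5:**
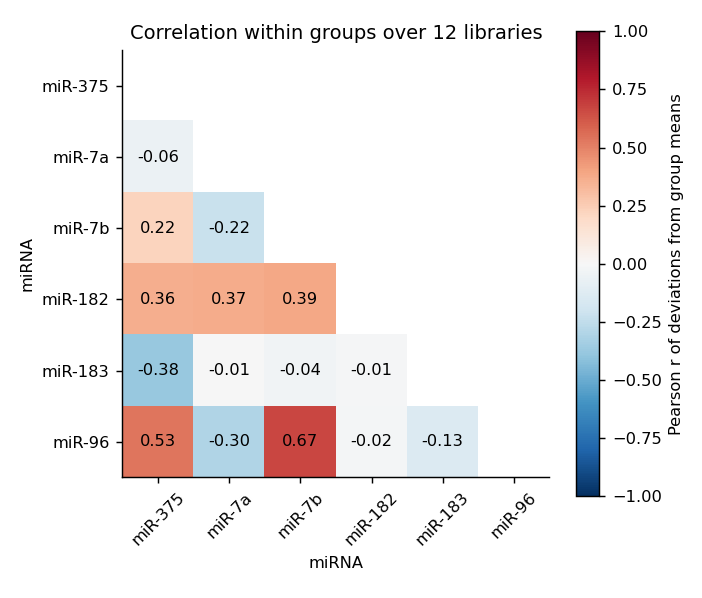
Pearson r between each pair of the 6 miRNAs, computed on deviations from the group means of log2(signal + 1) over 12 libraries; both axes list the miRNAs and the colour scale runs from −1 to 1. The 3 pairs of the miR-183, miR-96 and miR-182 cluster lie between −0.13 and −0.01, and the highest value is 0.67 for miR-7b and miR-96.

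The tested probes whose log2 signal followed each of the 6 most closely over the 12 libraries are given as a description, since these correlations include the group differences and the shared scaling of each library. For miR-375 they were miR-148b (r = 0.83), miR-99b (0.79) and miR-19a (0.76). For miR-7a they were miR-335-5p (0.81), miR-1906 (0.80) and miR-218 (0.76). miR-96 was closest to miR-107 (0.80), miR-148b (0.73) and miR-1983 (0.73), and miR-7b to miR-345-5p (0.76), miR-675-5p (0.72) and miR-196b (0.70). For miR-182 they were miR-376c (0.77), miR-191 (0.62) and miR-421 (0.58), and for miR-183 miR-30e (0.64), miR-691 (0.57) and miR-300 (0.55). None of the 6 was among the 3 closest probes of another.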

How the data were processed

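The authors deposited normalised signal per probe from the NanoString nCounter miRNA assay with mouse panel 1.5, per the labels' protocols. In this assay mature miRNAs are tagged, hybridised to coloured reporters and counted without amplification. No source used here names the software or the scaling. Within a library, each deposited signal equalled a whole number of counts multiplied by the same factor (100% of values whole within 0.01 of a count), and the sum over the 100 strongest probes of each library lay between 220014 and 222565. Replicates differed by more than counting noise (chi-square per degree of freedom 1.79 to 14.7).

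Signal was taken as log2(value + 1), and the 226 of 566 mouse probes above 32 in at least 4 libraries (16.6 to 54.2 counts, by library) entered 1 limma 3.58.1 fit (R 4.3.3) over all 12 libraries, with moderated variances following the mean level, and Benjamini-Hochberg adjustment over all tested probes at 0.05. Fold changes on this scale understate those of weak probes. Ratios, relative levels and correlations within groups used exact permutation tests over libraries. Of the probes, the text names the 6 miRNAs, the 7 epithelial ones, the 3 closest to each of the 6, and leading list members. The fit was tested on counts simulated with the probe means, spread and scale factors of these libraries. That run did not test the choice of scaling. Alternatives were other scalings, filters, pseudocounts, background subtraction, variance settings, thinning, a depth covariate, a block by animal number, each library left out, and edgeR 4.0.16 and DESeq2 1.42.0 on recovered counts. The miRNAs and lists were chosen with earlier results of these data known. The members of the marker lists for leukocyte, erythroid, endothelial, striated muscle, neural and liver cells were summed per library: cecal transfer libraries had 2029 to 2714, 1466 to 1981, 5626 to 5907, 1297 to 1890, 538 to 569.9 and 55.5 to 69.5 units of signal, antibiotic libraries 1781 to 2079, 1208 to 1492, 5150 to 6435, 860 to 1437, 494 to 631 and 42.3 to 47.2, and control libraries 1450 to 2644, 1128 to 1381, 5653 to 6640, 1314 to 2005, 470 to 593 and 40.4 to 51.5.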

Additional observations from a re-analysis of the deposited data

Results flagged for a closer look

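miR-7b in cecal transfer replicate 4 had a signal of 57.2, while the other 3 libraries of the group lay between 69.8 and 70.4. The gap to the nearest library was 0.950 of the group's range, above Dixon's 95% critical value for 4 samples. Of the 18 groups of values examined this was the only one past it, and about 1 in 20 such groups is past it by chance.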

How the results depend on the processing

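Of the 6 miRNAs, 1 (miR-7a) was called in cecal transfer against control. The number called there was 0 with median centring, with DESeq2 on the recovered counts, with log2 depth as a covariate and with the planned single thinning draw, and it ran between 0 and 1 as single libraries were left out. With quantile normalisation 1 was called, but it was miR-183 in place of miR-7a. The log2 difference of miR-7a in this comparison stayed above 0 in all 29 alternatives (0.13 to 0.43) and passed in 20, with adjusted p between 0.00264 and 0.566. The lowest came from the single thinning draw. The median of 20 further draws, an alternative chosen after seeing the data because that difference was low, was 0.35 (range 0.27 to 0.44). Some of the alternatives can change only the adjusted p, not a log2 difference between these groups. They are other filters, no variance trend, robust moderation, a fit of only the 2 groups compared, and an antibiotic library left out. miR-7a passed in each of them. For antibiotic against control, miR-7a lay between 0.19 and 0.40 and passed in none of 28. In the other comparisons 0 of 6 were called under every alternative run. The cause of these changes was not tested. Over all tested probes, settings other than leaving out a library or the block by animal number called 0 to 3 for antibiotic against control, 23 to 84 for cecal transfer against control and 0 to 161 for cecal transfer against antibiotic, and leaving out single libraries 0 to 8, 47 to 67 and 55 to 82. No ratio, relative level or correlation passed under an alternative with an adjusted p. Among ratios and relative levels, a single fully separated one could not have passed on its own. For cecal transfer against control, miR-7a and miR-183 kept their direction under every alternative run, and the others did not: miR-375 ranged from −0.21 to 0.09, miR-7b from −0.12 to 0.30, miR-96 from −0.05 to 0.20 and miR-182 from −0.28 to 0.25. Against antibiotic, miR-375 in cecal transfer ranged from −0.28 to 0.24. The animal numbers 38 and 39 occur in the titles of both a cecal transfer and a control library, and no label says that a number marks a shared dam. Deviations from the group means correlated at 0.08 and −0.28 within these pairs over 226 probes. With the animal number as a block, chosen after seeing the data and leaving 1 residual degree of freedom, 0 of the 6 and 0 of all probes were called (miR-7a 0.24, adjusted p = 0.566). Cecal transfer and antibiotic, and antibiotic and control, share 0 numbers.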
